A study of Rattus norvegicus with 24 samples.

Results

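The response of 2 rat tissues to one androgen was compared gene by gene. Each gene's dihydrotestosterone (DHT) effect in prostate (log2 level with DHT minus log2 level with vehicle) was set against its DHT effect in forebrain, and the difference between these effects was tested. The comparison used 11 of the 24 arrays of the series: 3 prostate vehicle, 3 prostate DHT, 2 forebrain vehicle and 3 forebrain DHT arrays. The third forebrain vehicle array had failed quality control according to its label and was left out. Of 41012 probes on the array, 25195 were well above background on at least 3 arrays of each tissue, and these stood for 23728 genes, 6144 of them with a gene symbol. Every probe without a symbol was counted as a gene of its own. Several of them can belong to the same gene, so counts over all genes are in large part counts of probes. All animals of these 4 groups were Sprague-Dawley male rats of 12 weeks that had been castrated 3 days earlier, the vehicle animals included. They received 10 mg/kg DHT or vehicle in a single intraperitoneal injection, and tissue was taken 16 h later. Whether a prostate and a forebrain sample with the same number belonged to one animal is not stated in the labels. The p-values therefore measure the spread between these samples.

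DHT is a potent androgen, a steroid hormone that changes the transcription of its target genes, and unlike testosterone it is not converted to estrogen. The prostate is a secretory gland that regresses after castration and regrows when androgen returns. The forebrain also responds to androgen, in a minority of its neurons, and is not an organ of bulk protein secretion. A gene can therefore be present in both tissues and respond in only one of them, and the test of the difference asks which genes do so.

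The arrays followed their tissue labels. Markers of prostate luminal cells had mean log2 levels of 3.13 to 5.11 on the prostate arrays and of -4.16 to -2.54 on the forebrain arrays. Neuron markers lay at 2.14 to 2.79 in forebrain and at -6.42 to -4.59 in prostate. Here and below, a level is log2 signal relative to the 75th percentile of the same array. Between 59.3% and 87.5% of probes were well above background on the 11 arrays. The narrowest ranges of signal were those of prostate vehicle array 3 (log2 interquartile range 4.99) and forebrain DHT array 1 (5.01), against 5.89 to 6.82 on the others. Vehicle and DHT arrays lay on different slides in both tissues, so slide and treatment cannot be told apart within a tissue. Each slide held 1 prostate and 1 forebrain array (1 slide held only a usable prostate array), so the difference between tissues could also be taken within slides.

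The effect of DHT differed between prostate and forebrain for 2586 of the 23728 genes (10.9%; limma, Benjamini-Hochberg adjusted p under 0.05). It was higher in prostate for 1476 genes (6.22%) and lower for 1110 (4.68%), so that 57.1% of the calls were higher (49.4% with each array scaled to its median instead), while the median difference over all genes was 0.07 on the log2 scale. Taken alone, prostate had 2555 rises (10.8%) and 2108 falls (8.88%). Forebrain had 107 rises (0.451%) and 188 falls (0.792%), a total of 295, although 5000 genes reached an unadjusted p under 0.05 there. That total was 5 with the replicate block, 3 without forebrain vehicle array 2, 4, 7 and 18 without forebrain DHT arrays 2, 3 and 1, and 832 without prostate vehicle array 3. Leaving out 1 of the others gave 26 to 698. Of the 2586 genes, 1842 passed in prostate and not in forebrain, 148 in forebrain and not in prostate, 29 in both with opposite signs and 2 in both with the same sign. The other 565 passed in neither tissue alone. With the replicate number as a block (replicate block), 1396 genes passed, and with slide as a fixed block 4320. Leaving out prostate vehicle array 1 or any 1 forebrain array gave 1088 (without forebrain vehicle array 2) to 1660 genes, and leaving out any other prostate array 1913 to 3505 (without prostate vehicle array 3). Without both arrays of narrow range, 2515 genes passed. Adding the failed forebrain vehicle array lowered the count to 210, and fitting all 23 usable arrays of the 4 tissues together to 438.

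**Figure D1:**
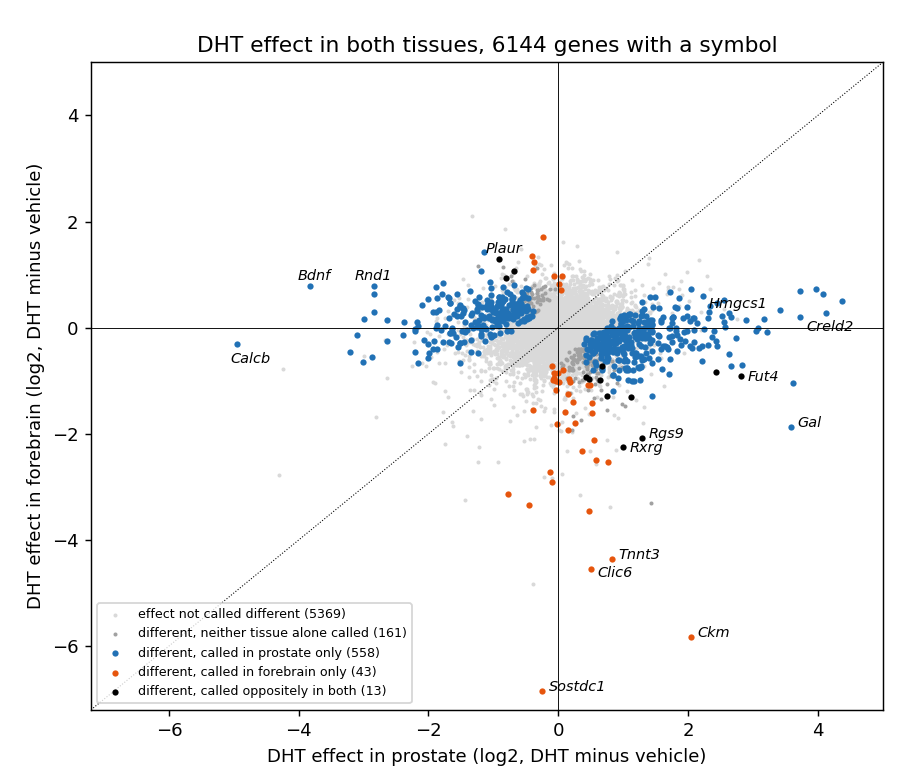
DHT effect in prostate (x axis) against DHT effect in forebrain (y axis), both as log2 DHT minus vehicle, for the 6144 tested genes with a symbol; each point is 1 gene, coloured by its class, and the dotted line marks equal effects. The 558 genes called in prostate only spread along the x axis, and the 43 called in forebrain only lie mostly below 0 on the y axis, with Sostdc1 and Ckm lowest.

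A gene that passes in prostate and not in forebrain has not been shown to lack a forebrain response. Of the 1842 genes called in prostate only, 1374 had a 95% confidence interval of the forebrain effect that lay within 1 log2 unit of 0, so that a change of more than 2-fold there was outside the interval. They comprised 730 of the 990 genes higher and 644 of the 852 lower. The median size of the effect among the 1842 genes was 1.06 in prostate and 0.30 in forebrain. DHT and vehicle arrays did not overlap for 35.8% of all genes in prostate and 48.2% in forebrain, which is the background for every such statement below.

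The clearest group with a prostate response and no forebrain call was the protein folding machinery of the endoplasmic reticulum. This compartment folds, disulfide-bonds and quality-checks proteins that will be secreted. All 22 tested members rose in prostate (against 10.8% of all genes). None passed in forebrain, where only 0.451% of all genes rose and 0.792% fell, so no call among 22 genes is near that background. There 1 member had an unadjusted p under 0.05 (limma), against 5000 of all 23728 genes. By the test of the difference, 19 had a higher effect in prostate (against 6.22%). The median difference was 1.34, with a median prostate effect of 1.40 and a median forebrain effect of 0.01. Vehicle and DHT arrays did not overlap in prostate for any of the 22. The forebrain interval lay within 1 log2 unit of 0 for 21 (against 15069 of all 23728 genes). The 3 members that missed the test of the difference were Canx, Ero1a and Pdia6, at 0.50, 0.58 and 1.13.

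Creld2, an endoplasmic reticulum factor induced when unfolded protein accumulates, stood at 2.42, 2.47 and 3.14 in vehicle prostate and at 6.27, 6.55 and 6.41 with DHT. In forebrain it stood at 0.10 and 0.39 with vehicle and at 0.35, 0.34 and 0.62 with DHT. The prostate groups were far apart and the forebrain groups overlapped. Its effect was 13.3-fold in prostate and 1.14-fold in forebrain, a difference of 3.54 ± 0.30 log2 units (SE, adjusted p = 0.000543, limma). Calr, the calcium-binding chaperone calreticulin, rose from 2.96, 3.21 and 3.37 to 5.89, 5.83 and 5.55 in prostate, while all 5 forebrain arrays lay between 2.68 and 3.06. The difference was 2.57 ± 0.24 (adjusted p = 0.000929). Fkbp11, a prolyl isomerase of secretory cells (2.63 ± 0.29, adjusted p = 0.00169), and Hsp90b1, the chaperone GRP94 (1.57 ± 0.18, adjusted p = 0.00190), were the other members with the smallest adjusted p. Hyou1, a chaperone of the HSP70 family, and Hspa5, the chaperone BiP, had differences of 2.94 and 2.13, each resting on 2 prostate DHT arrays because 1 spot had been marked as an outlier.

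Many genes of this machinery carry an endoplasmic reticulum stress element (ERSE) in their promoters. The ERSE was searched as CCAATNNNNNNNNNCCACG on both strands in the 300 bases from 250 before to 50 after the start of each gene (RefSeq, GRCr8). Of the 6144 tested genes with a symbol, 5002 had a promoter in the table. The element was present in 6 of the 18 folding genes with a promoter (33.3%), against 10 of the 5002 (0.200%) and 21 of all 27457 promoters (0.0765%). The 6 genes were Creld2, Calr, Hsp90b1, Hspa5, Canx and Dnajc3. They are shown because 5 of them were called in prostate only, with differences between 1.40 for Dnajc3 and 3.54 for Creld2. The sixth, Canx, the lectin chaperone calnexin, rose in prostate by 0.61 (adjusted p = 0.0472) without passing the test of the difference. None of the tested genes with the element outside the folding list passed that test. Birc5 and Zfp57 had negative differences (adjusted p = 0.183 and 0.223, limma). Zfand2a and Hnrnpa3 had positive ones (adjusted p = 0.390 and 0.644, limma). The promoters run 5′ to 3′ on the strand of the gene, and capitals mark each match to the element or to its reverse complement.
Creld2 (chr7:121789134-121789433, plus strand): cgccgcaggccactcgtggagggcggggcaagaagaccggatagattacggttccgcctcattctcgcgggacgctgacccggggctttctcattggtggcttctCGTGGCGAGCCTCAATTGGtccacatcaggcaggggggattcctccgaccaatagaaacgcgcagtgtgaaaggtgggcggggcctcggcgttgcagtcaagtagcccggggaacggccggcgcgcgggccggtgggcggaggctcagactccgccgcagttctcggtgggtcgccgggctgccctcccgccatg
Calr (chr19:40213117-40213416, plus strand): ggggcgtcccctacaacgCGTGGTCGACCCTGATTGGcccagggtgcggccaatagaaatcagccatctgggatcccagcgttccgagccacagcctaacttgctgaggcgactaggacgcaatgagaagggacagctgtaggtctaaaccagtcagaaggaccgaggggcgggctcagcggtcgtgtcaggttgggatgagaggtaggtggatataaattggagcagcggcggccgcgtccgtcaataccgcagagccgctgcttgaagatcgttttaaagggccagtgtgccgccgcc
Hsp90b1 (chr7:23012244-23012543, minus strand): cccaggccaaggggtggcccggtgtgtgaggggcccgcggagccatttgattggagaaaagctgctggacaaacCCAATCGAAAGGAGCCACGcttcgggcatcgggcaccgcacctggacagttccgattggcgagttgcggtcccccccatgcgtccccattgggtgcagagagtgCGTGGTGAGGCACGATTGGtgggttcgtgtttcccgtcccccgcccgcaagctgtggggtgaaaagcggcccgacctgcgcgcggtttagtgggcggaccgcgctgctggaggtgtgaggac
Hspa5 (chr3:38452766-38453065, plus strand): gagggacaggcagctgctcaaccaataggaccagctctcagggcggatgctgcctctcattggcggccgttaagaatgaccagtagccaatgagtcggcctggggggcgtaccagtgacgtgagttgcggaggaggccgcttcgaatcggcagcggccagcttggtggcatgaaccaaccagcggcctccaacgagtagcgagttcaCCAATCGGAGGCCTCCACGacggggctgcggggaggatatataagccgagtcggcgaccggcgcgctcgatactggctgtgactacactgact
Canx (chr10:35157808-35158107, minus strand): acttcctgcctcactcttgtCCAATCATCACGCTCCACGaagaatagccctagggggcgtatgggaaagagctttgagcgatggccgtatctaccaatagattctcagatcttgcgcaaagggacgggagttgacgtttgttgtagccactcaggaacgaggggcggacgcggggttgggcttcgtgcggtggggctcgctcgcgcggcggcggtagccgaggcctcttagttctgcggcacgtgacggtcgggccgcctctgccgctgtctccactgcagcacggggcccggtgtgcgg
Dnajc3 (chr15:102432417-102432716, plus strand): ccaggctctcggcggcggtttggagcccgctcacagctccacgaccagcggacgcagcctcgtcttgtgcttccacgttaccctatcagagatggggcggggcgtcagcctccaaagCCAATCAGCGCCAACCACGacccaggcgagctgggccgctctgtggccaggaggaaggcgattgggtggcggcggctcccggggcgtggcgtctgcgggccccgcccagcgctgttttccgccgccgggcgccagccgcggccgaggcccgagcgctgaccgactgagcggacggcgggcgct
Hsp90b1 held 2 matches and the others 1 each. The match began 43 bases before the start in Hspa5 and 232 before it in Calr. None of the 17 promoters of cholesterol genes, of the 22 of secretory transport genes or of the 177 of genes called in prostate only with a lower effect held the element. The palindromic androgen and glucocorticoid response element, searched as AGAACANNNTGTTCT, was in none of the 5002 promoters and in 2 of the 27457. The AP-1 element, TGANTCA, was in none of the 13 promoters of immediate early genes (5.52% of the 5002), and the E-box, CACGTG, was in 3 of the 13 of clock genes (9.42% of the 5002). These 4 motifs were searched on both strands too. A match describes letters in this window and is no evidence of binding, and the absence of one says nothing about sites elsewhere.

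Secretory transport, which carries folded proteins from the endoplasmic reticulum through the Golgi apparatus, moved with the folding genes in prostate. Of 27 tested members, 24 rose (against 10.8% of all genes) and 1 fell (8.88%) in prostate. None passed in forebrain, which is near the background there (0.451% of all genes rising and 0.792% falling). An unadjusted p under 0.05 (limma) was reached there by 6 members, against 5000 of all 23728 genes. The effect was higher in prostate for 13 (against 6.22%) and lower for 1 (4.68%), with a median difference of 0.82. The count of 13 became 8 with the replicate block and also without forebrain vehicle array 2, forebrain DHT array 2 or forebrain DHT array 3. Lman1, a cargo receptor for glycoproteins, went from 2.20, 2.29 and 2.68 to 4.35, 4.37 and 4.21 in prostate and from 0.36 and 0.43 to 0.53, 0.50 and 0.67 in forebrain. Both tissues showed higher DHT arrays, but by 3.79-fold in prostate and 1.13-fold in forebrain (difference 1.75 ± 0.22, adjusted p = 0.00242). Sar1b, the GTPase that starts COPII coat assembly, had a difference of 1.96 ± 0.27 (adjusted p = 0.00376), Bet1, a SNARE of vesicle fusion, 1.52 ± 0.21 (0.00380) and Ssr3, a subunit of the translocon-associated complex, 1.48 ± 0.20 (0.00305). Golph3, a Golgi phosphoinositide-binding protein, was the exception, with a prostate effect of -0.47 and a difference of -0.82 (adjusted p = 0.0419). Of 14 tested N-glycosylation genes, 6 rose in prostate (against 10.8%). None passed in forebrain (against 0.451% rising and 0.792% falling), and 3 had an unadjusted p under 0.05 there (limma, against 5000 of 23728). The effect was higher in prostate for 4 (against 6.22%), among them Dad1, an oligosaccharyltransferase subunit (difference 1.37 ± 0.24, adjusted p = 0.00893).

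Cholesterol synthesis genes rose in prostate as well. The pathway builds cholesterol from acetyl-CoA, and its enzymes are usually induced together by the transcription factor SREBP2. Of 22 tested members, 19 rose in prostate (against 10.8% of all genes) and none fell. None passed in forebrain (against 0.451% rising and 0.792% falling), and 1 had an unadjusted p under 0.05 there (limma, against 5000 of 23728). A higher effect in prostate was found for 17 (against 6.22%). The median effect was 1.82 in prostate and -0.14 in forebrain, and the median difference was 1.88. Hmgcs1, an early enzyme of the pathway, had levels of 2.47, 2.67 and 3.14 with vehicle and 6.31, 5.44 and 6.17 with DHT in prostate. Its forebrain levels were 4.92 and 5.09 with vehicle and 4.98, 4.89 and 4.91 with DHT, a range narrower than any step between the prostate groups. The difference was 3.29 ± 0.36 (adjusted p = 0.00169). Idi1, which isomerises isopentenyl diphosphate, had a difference of 3.09 ± 0.35 (adjusted p = 0.00184), and its forebrain effect was -0.00 with an interval of -0.59 to 0.58.

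Mvd, the decarboxylase of the mevalonate arm (2.80 ± 0.27, adjusted p = 0.000948), Acat2, which makes acetoacetyl-CoA (2.69 ± 0.26, 0.000929), and Sqle, the squalene epoxidase (2.06 ± 0.22, 0.00156), also differed. The members that did not differ were Pmvk (-0.17), Ebp (0.50), Mvk (0.71), Hsd17b7 (1.05) and Srebf2 (1.16). Hsd17b7 and Srebf2 rose in prostate. The sterol regulatory element, searched as TCACNCCAC, was in none of the 17 cholesterol gene promoters and in 1.08% of the 5002.

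Fatty acid synthesis was less uniform. Of 17 tested genes, 8 rose in prostate (against 10.8% of all genes) and 6 differed, all of them higher in prostate (against 6.22%). The count of 6 became 3 without forebrain vehicle array 2, forebrain DHT array 2 or forebrain DHT array 3. It was 4 with the replicate block and without forebrain vehicle array 1, prostate DHT array 1 or prostate DHT array 2. Scd2, a desaturase that makes monounsaturated fatty acids, had the smallest adjusted p of the whole list. In prostate it rose from 2.52, 2.84 and 2.55 to 5.46, 5.61 and 5.34. In forebrain it lay at 7.10 and 7.15 with vehicle and at 6.51, 6.41 and 6.33 with DHT. The DHT groups thus lay above vehicle in prostate and below it in forebrain, the latter with an adjusted p of 0.0510. The difference was 3.54 ± 0.20 (adjusted p = 0.000125), and 2 further probes of Scd2 gave 2.90 and 3.61. Mlxipl, the carbohydrate response factor ChREBP (1.97 ± 0.33, adjusted p = 0.00760), Acsl3, an acyl-CoA synthetase (1.42 ± 0.21, 0.00473), and Fasn, the fatty acid synthase (1.16 ± 0.25, 0.0213), differed too. A second Fasn probe gave 0.75 and narrowly missed (adjusted p = 0.0503, limma). Fads1, Fads2, Acaca and Me1, also of this pathway, had differences between 0.13 and 0.69 that did not pass.

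**Figure D2:**
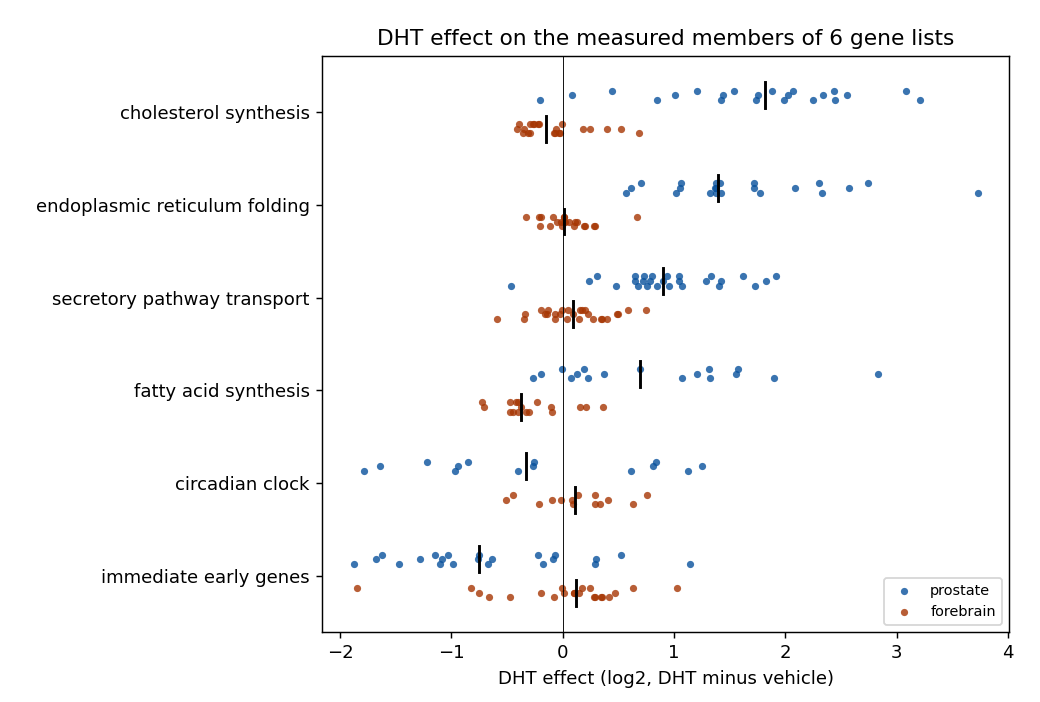
DHT effect (x axis, log2 DHT minus vehicle) of every tested member of 6 gene lists, blue for prostate and brown for forebrain; each point is 1 gene and black bars are medians. The cholesterol and folding lists have prostate medians of 1.82 and 1.40 and forebrain medians of -0.14 and 0.01, and the immediate early genes a prostate median of -0.75.

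Polyamine synthesis supplies small cations that the prostate makes in large amount. Of 7 tested polyamine genes, 4 rose in prostate (against 10.8% of all genes) and 3 differed, all higher in prostate (against 6.22%). Srm, the spermidine synthase, rose from 2.22, 2.22 and 2.56 to 4.77, 4.72 and 4.72 in prostate and lay between 2.13 and 2.27 on the forebrain arrays (difference 2.46 ± 0.19, adjusted p = 0.000343). Odc1, the first enzyme of the route, differed by 0.79 ± 0.20 (adjusted p = 0.0371, and 0.0638 with the replicate block), and its other probe by 0.85. Amd1, which supplies the aminopropyl donor, differed by 1.36 ± 0.32 (adjusted p = 0.0324, and 0.0641 with the replicate block). Sms, the spermine synthase, rose in prostate (effect 1.89) and had an effect of 0.88 in forebrain (adjusted p = 0.0888), and its difference of 1.01 did not pass. The growth factors Igf1 and Igf2 differed by 1.61 ± 0.27 (adjusted p = 0.00784) and 2.0 ± 0.37 (0.0118), with rises in prostate of 2.42-fold and 2.37-fold. The 3 other Igf1 probes gave 1.27, 0.70 and 0.52.

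Markers of other prostate cells moved in part with these results. The 5 adipocyte markers on the array had mean levels of -0.64 to -0.09 on vehicle and 0.43 to 0.72 on DHT prostate arrays. Of 8 tested adipocyte genes, 4 rose in prostate (against 10.8% of all genes) and 3 had a higher effect there (against 6.22%). Among these 3, Adipoq passed in neither tissue alone, and its forebrain levels were lower with DHT. Cfd, which encodes adipsin, stood at 5.76, 5.57 and 5.75 and then at 7.48, 6.82 and 6.61 in prostate (difference 2.01 ± 0.32, adjusted p = 0.00663). The part of fat in the lipid gene results was not tested. In whole tissue, fewer cells of a type and less RNA per cell cannot be told apart. Luminal cell markers had mean levels of 3.41, 3.52 and 5.11 with vehicle and 3.48, 3.13 and 3.58 with DHT, so the groups overlapped. The highest was prostate vehicle array 3, which had a narrow range of signal. Of 7 tested luminal markers, none rose in prostate and 2 fell (against 8.88% of all genes). These were the tight junction genes Cldn3 and Cldn4 (3.03-fold and 3.25-fold). A second Cldn4 probe had a prostate effect of -0.15. By the test of the difference, 1 of the 7 had a higher effect in prostate (against 6.22%) and 3 a lower one (4.68%). In forebrain, 1 of the 7 fell (0.792%). Pbsn, a further luminal marker, was measured in prostate only and rose 57.7-fold.

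Signalling peptides were among the genes with large differences that were called in prostate only. Gal, which encodes the neuropeptide galanin, stood at -3.93, -3.25 and -2.94 in vehicle prostate and at -0.31, -0.30 and 1.26 with DHT. In forebrain it stood at 2.04 and 3.08 with vehicle and at 0.62, 0.92 and 0.51 with DHT. The order of the groups was thus reversed between the tissues, with a 12.0-fold rise in prostate and a forebrain effect of -1.88 (adjusted p = 0.0858). Its difference of 5.46 ± 0.67 (adjusted p = 0.00235) was the largest among genes with a symbol called in prostate only. Nppc, which encodes C-type natriuretic peptide, was not well above background on any vehicle prostate array and reached -3.66, -3.18 and -2.44 with DHT, at least 4.08-fold higher. It passed the filter in prostate through the DHT arrays alone. Its forebrain arrays lay between -1.25 and 0.06, and the adjusted p of 0.00444 for the difference became 0.981 with normexp background correction.

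Id4, an inhibitor of helix-loop-helix transcription factors, rose from 3.85, 4.25 and 3.95 to 6.63, 6.60 and 6.81 in prostate and lay at 3.96 and 4.08 against 3.49, 3.38 and 3.01 in forebrain. Here too the DHT arrays were higher in one tissue and lower in the other, the forebrain effect of -0.73 having an adjusted p of 0.0743 (difference 3.39 ± 0.24, adjusted p = 0.000275). Abo3, a blood group glycosyltransferase gene, rose 17.4-fold in prostate (difference 3.85 ± 0.57, adjusted p = 0.00444), and its forebrain signal was well above background on 1 of 2 vehicle and 2 of 3 DHT arrays. Cntn6, a neural adhesion molecule, and Slc10a4, a transporter of synaptic vesicles, had differences of 3.87 and 4.65 but passed narrowly. Both were well above background on 1 of 3 vehicle prostate arrays. Their adjusted p of 0.0435 and 0.0419 became 0.0505 and 0.0790 with the replicate block, and neither passed when any 1 array other than prostate vehicle array 3 was left out.

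**Figure D3:**
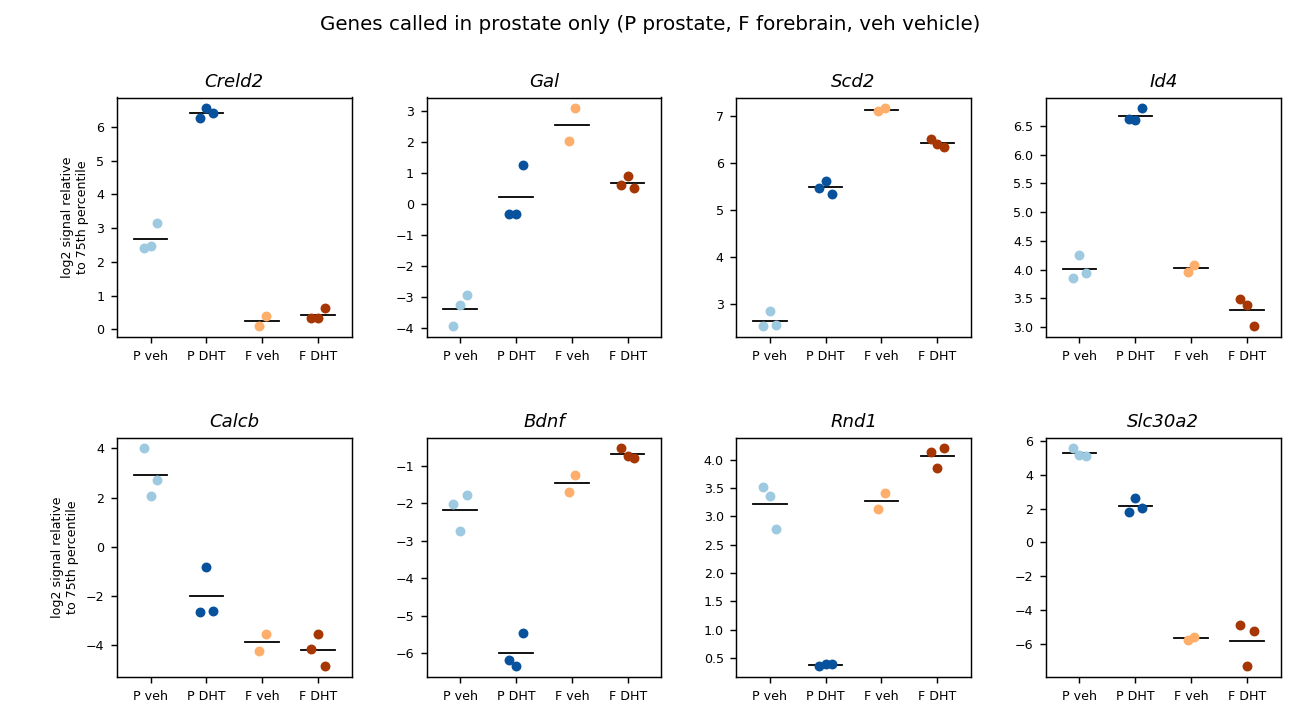
Level of 8 genes called in prostate only on every array (y axis, log2 signal relative to the 75th percentile of the array), by group on the x axis; points are arrays and bars group means. Creld2, Gal, Scd2 and Id4 are higher with DHT in prostate, Calcb, Bdnf, Rnd1 and Slc30a2 lower, and the forebrain groups lie close together or shift the other way.

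The genes that fell in prostate only were a mixed set. Calcb, which encodes a calcitonin gene-related peptide, went from 4.00, 2.05 and 2.70 to -2.64, -0.82 and -2.63 in prostate, a 30.9-fold fall, and its forebrain groups overlapped between -4.87 and -3.54. The difference was -4.64 ± 0.92 (adjusted p = 0.0146, and 0.0520 without forebrain vehicle array 1). Bdnf, a neurotrophin gene, stood at -2.02, -2.75 and -1.77 in vehicle prostate and was not well above background on any prostate DHT array, at least 8.16-fold lower. In forebrain, where it supports neurons and synapses, it stood at -1.69 and -1.24 with vehicle and at -0.54, -0.73 and -0.79 with DHT. The groups were ordered oppositely in the tissues, with a forebrain effect of 0.78 (adjusted p = 0.212). Bdnf passed the filter in prostate through the vehicle arrays alone, so the size of its difference is not measured.

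Rnd1, a GTPase that loosens actin stress fibres, fell from 3.51, 3.37 and 2.78 to 0.35, 0.38 and 0.39 in prostate. Its forebrain levels were 3.14 and 3.42 with vehicle and 4.14, 3.86 and 4.20 with DHT, again in the opposite order (effect 0.79, adjusted p = 0.0930). The difference was -3.63 ± 0.29 (adjusted p = 0.000441) and -4.43 on its second probe. Syt12, a synaptotagmin, was at least 2.86-fold lower in prostate with DHT and Gramd2a at least 2.26-fold lower. Both were well above background on all 3 prostate vehicle arrays and on no prostate DHT array. They passed the filter in prostate through the vehicle arrays alone, so the size of their differences is not measured. The adjusted p of the differences was 0.000408 and 0.00484, and 0.0935 and 0.564 with normexp (limma). Slc30a2, a zinc transporter, fell 8.58-fold in prostate, and its difference of -2.96 ± 0.79 (adjusted p = 0.0441) became 0.0871 in adjusted p with the replicate block. Flvcr2, a choline and haem transporter family member, and Mroh2b differed by -3.15 each, with 2 usable vehicle prostate arrays apiece.

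Immediate early genes, which cells switch on within minutes of a stimulus, fell in prostate. Of 22 tested, 11 fell (against 8.88% of all genes) and 1 rose (10.8%) in prostate, and 7 had a lower effect there (4.68%). The median difference was -1.09, with a prostate median of -0.75 and a forebrain median of 0.12. Junb, an AP-1 transcription factor, stood at 3.75, 3.49 and 3.54 in vehicle prostate and at 1.89, 2.03 and 1.85 with DHT. In forebrain it lay at 0.13 and -0.10 with vehicle and at 0.06, 0.41 and 0.96 with DHT, so these groups overlapped. The difference was -2.14 ± 0.31 (adjusted p = 0.00439). Gadd45b, a stress-induced growth regulator (-1.75 ± 0.20, adjusted p = 0.00188), Klf6, a zinc finger factor (-1.32 ± 0.19, 0.00426), and Fosl2, another AP-1 member (-1.33 ± 0.20, 0.00484), differed as well.

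Not every member of that list followed this pattern. Atf3, a stress-induced repressor, fell in both tissues, from 4.21, 4.38 and 3.46 to 2.62, 2.21 and 2.34 in prostate and from -2.02 and -1.55 to -3.36, -4.13 and -3.40 in forebrain. Its difference of 0.22 ± 0.43 did not pass (adjusted p = 0.774). Nr4a1, an orphan nuclear receptor, rose in prostate by 1.14, and its difference of 1.23 had an adjusted p of 0.0569. Of 13 tested chemokine and NF-kB genes, 3 fell (against 8.88% of all genes) and 1 rose (10.8%) in prostate. The effect was higher there for 1 (against 6.22%) and lower for 2 (4.68%). Birc3, an inhibitor of apoptosis, and Nfkb2, an NF-kB subunit, had differences of -1.57 ± 0.29 (adjusted p = 0.0115) and -1.44 ± 0.30 (0.0189). Nfkb2 did not overlap between groups in either tissue and was lower with DHT in both, by 4.00-fold in prostate and 1.48-fold in forebrain (adjusted p there 0.196). A second Nfkb2 probe did not pass the test of the difference (-0.51, adjusted p = 0.387, limma), with effects of -1.35 in prostate and -0.84 in forebrain.

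Clock genes, whose feedback loops keep daily time, changed in prostate in both directions. Of 14 tested, 4 rose and 6 fell there, and 2 had a higher and 4 a lower effect in prostate. None passed in forebrain (against 0.451% rising and 0.792% falling), and 3 had an unadjusted p under 0.05 there (limma, against 5000 of 23728). Over all genes, 10.8% rose and 8.88% fell in prostate, and 6.22% had a higher and 4.68% a lower effect there. Bhlhe40, a light- and hypoxia-responsive repressor of the clock, stood at 1.25, 1.28 and 0.87 and then at -0.51, -0.41 and -1.03 in prostate. In forebrain its levels were 0.70 and 0.77 with vehicle and 1.35, 1.26 and 1.48 with DHT, the opposite order (effect 0.63, adjusted p = 0.130). The difference was -2.42 ± 0.27 (adjusted p = 0.00184). Per3 (-1.62 ± 0.23, adjusted p = 0.00398), Nr1d2, the repressor REV-ERB beta (-1.61 ± 0.27, 0.0102), and Nr1d1, REV-ERB alpha (-1.36 ± 0.34, 0.0366), were lower in prostate. Cry1, a repressor acting at another phase (1.29 ± 0.21, 0.00905), and Nfil3 (1.35 ± 0.30, 0.0243) were higher. The labels give no clock time of injection or collection.

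Genes known as direct targets of androgens and glucocorticoids did not share one pattern. Of 19 tested, 5 rose and 4 fell in prostate, and 2 had a higher and 2 a lower effect there. None passed in forebrain (against 0.451% rising and 0.792% falling), and 4 had an unadjusted p under 0.05 in that tissue (limma, against 5000 of 23728). Over all genes, 10.8% rose and 8.88% fell in prostate, and 6.22% had a higher and 4.68% a lower effect there. Fkbp5, a co-chaperone of steroid receptors, stood at 4.38, 4.39 and 4.80 in vehicle prostate and at 7.02 and 7.07 on the 2 usable DHT arrays. Its forebrain levels were 2.40 and 1.86 with vehicle and 2.17, 2.40 and 2.50 with DHT, which overlap. The difference was 2.30 ± 0.30 (adjusted p = 0.00387), and 2 other probes gave 2.38 and 2.20. It passed under every alternative tried for it. Ndrg1, a stress-responsive gene, and Errfi1, a feedback inhibitor of the EGF receptor, had differences of -1.46 ± 0.27 (adjusted p = 0.0108) and -0.99 ± 0.22 (0.0239, and 0.0635 with the replicate block).

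Zbtb16, which encodes the transcriptional repressor PLZF, had positive DHT estimates in both tissues. It stood at -1.16, -0.60 and 0.45 in vehicle prostate and at 1.05, 0.94 and 0.91 with DHT. In forebrain it stood at -2.61 and -3.32 with vehicle and at -1.94, -1.65 and -1.37 with DHT. Neither tissue's groups overlapped, and DHT was higher in both. The effects were 1.40 in prostate (adjusted p = 0.0247) and 1.31 in forebrain (0.117), with a difference of 0.09 and an interval of -1.13 to 1.31. Its second probe gave effects of 1.43 and 1.22. Tsc22d3, the glucocorticoid-induced leucine zipper, rose in prostate by 1.04 with a difference of 1.28 (interval 0.33 to 2.23, adjusted p = 0.0799, and 0.0309 with slide as a random block or 0.0153 as a fixed block). Without prostate vehicle array 3 it passed (0.0200), and with the failed forebrain vehicle array added it did not (0.439). A second probe of Tsc22d3 had a difference of 0.51 (adjusted p = 0.302, limma). Sgk1, a kinase that controls sodium transport, had effects of 0.32 and -0.61 and a difference of 0.93 (adjusted p = 0.132). Per1 (difference 0.40, interval -0.62 to 1.42) and Clu, which encodes the secreted chaperone clusterin (1.52, interval 0.32 to 2.72, adjusted p = 0.0961), did not pass. Clu passed with slide as a random block (0.0439) and without prostate DHT array 3 (0.0486), not with slide as a fixed block (0.0521). Of 10 tested genes of steroid receptors and their enzymes, none differed by limma, 3 having an unadjusted p under 0.05 (against 7023 of all 23728 genes).

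Opposite responses that passed in both tissues were found for 29 genes, 20 higher and 9 lower in prostate, and 13 of them had a symbol. As a background, 8.46% of all genes had arrays that did not overlap in either tissue and lay in opposite order. Rxrg, a retinoid X receptor that is abundant in striatal neurons, stood at -2.96, -2.85 and -2.74 in vehicle prostate and at -1.65, -1.80 and -2.10 with DHT. In forebrain it fell from 1.58 and 1.84 to -0.27, -0.50 and -0.86. The groups were well apart in both tissues (2.0-fold higher, adjusted p = 0.00494, and 4.76-fold lower, adjusted p = 0.00511), and the difference was 3.25 ± 0.27. Rgs9, a striatal regulator of G-protein signalling, rose 2.45-fold in prostate, from -5.38, -4.49 and -4.61 to -3.09, -3.86 and -3.66. In forebrain it fell 4.25-fold, from 2.98 and 2.61 to 1.29, 0.50 and 0.34 (difference 3.38 ± 0.48, adjusted p = 0.00418).

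Fut4, a fucosyltransferase that makes the Lewis x antigen, had an adjusted p of the difference of 0.000139. It rose from 4.31, 4.31 and 4.86 to 7.31, 7.30 and 7.30 in prostate, while in forebrain it fell from -1.14 and -1.02 to -1.98, -2.03 and -1.95. The rise was 7.03-fold and the forebrain fall 1.87-fold (adjusted p = 0.0437). Paqr5, a membrane progestin receptor, rose 5.38-fold in prostate and fell 1.79-fold in forebrain (adjusted p = 0.0386), where its second probe had an effect of -0.30. The 6 other named genes of this direction were Dnajc22, Ebf1, Stat5a, Ifi35, Aox1 and Fgfrl1, whose prostate effects were 0.43 to 1.13 and forebrain effects -1.31 to -0.72. Ebf1 and Stat5a encode transcription factors.

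Only 3 named genes fell in prostate and rose in forebrain. Plaur, the urokinase receptor, went from -1.12, -1.11 and -1.58 to -2.21, -2.27 and -2.06 in prostate and from -5.35 and -5.33 to -4.01, -4.35 and -3.78 in forebrain. It was well above background on 1 of 2 forebrain vehicle arrays, and the difference was -2.20 ± 0.27 (adjusted p = 0.00229). Plk2, an activity-induced kinase of neurons, stood at 0.03, -0.03 and -0.15 and then at -0.88, -0.73 and -0.95 in prostate, and at 1.83 and 1.82 and then at 2.66, 2.74 and 2.90 in forebrain. Its groups were tight and apart in both tissues (difference -1.74 ± 0.18, adjusted p = 0.00150). Lurap1l had effects of -0.68 in prostate and 1.06 in forebrain (difference -1.74 ± 0.22, adjusted p = 0.00271). The calls in forebrain were what limited this class. With the replicate block, 1 gene passed in both tissues oppositely, without both arrays of narrow range 3, with the failed forebrain vehicle array added 0 by limma, and with array weights 172. Rxrg kept its class in 21 of 25 alternatives, the other 12 named genes in 7 to 14 of 24 or 25. The sign in prostate held in all of them for each of the 13 genes, and the sign in forebrain in all for each gene but Plaur, which had 1 exception.

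**Figure D4:**
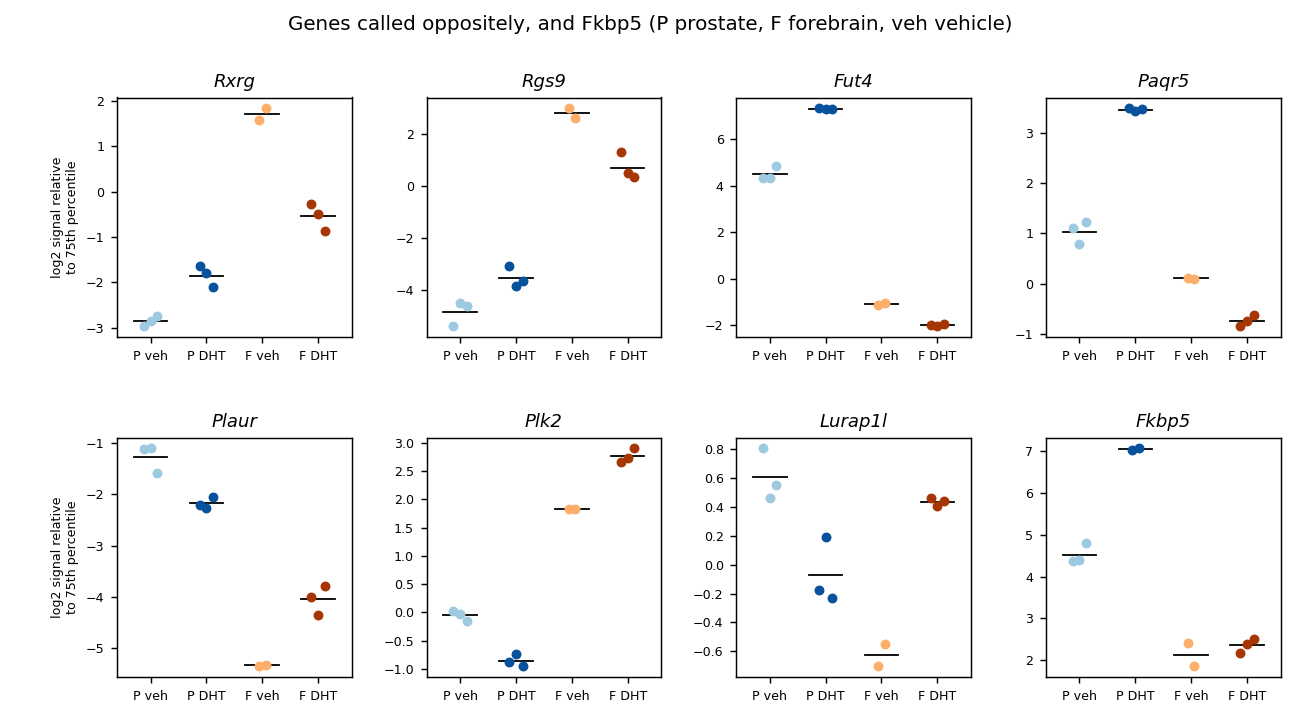
Level of 7 genes called oppositely in the tissues, and of Fkbp5, on every array (y axis, log2 signal relative to the 75th percentile of the array; each panel has its own range), by group on the x axis; points are arrays and bars group means. Rxrg, Rgs9, Fut4 and Paqr5 are higher with DHT in prostate and lower in forebrain, Plaur, Plk2 and Lurap1l the reverse, and Fkbp5 is higher in prostate with overlapping forebrain groups.

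Genes called in forebrain only were mostly falls, 35 of the 43 with a symbol, and the most extreme of them are markers of other tissue. Sostdc1, a BMP and Wnt antagonist made by choroid plexus, stood at 1.82 and 3.68 in vehicle forebrain and at -3.74, -4.10 and -4.41 with DHT, 114-fold lower (adjusted p = 0.00692). Only 1 prostate vehicle array had a usable spot for it. Ckm, the muscle creatine kinase, stood at 0.10 and -0.35 with vehicle and at -3.63, -7.39 and -6.82 with DHT (adjusted p = 0.0386), where 1 of 3 arrays was well above background. Tnnt3, a fast skeletal muscle troponin, and Clic6, an ion channel protein of choroid plexus, fell 20.5-fold and 23.3-fold (adjusted p = 0.0306 and 0.0348), also with 1 of 3 DHT arrays well above background. The forebrain vehicle and DHT arrays did not overlap for any of these 4 genes.

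The levels of whole marker lists moved with them. All 6 choroid plexus markers were well above background on both forebrain vehicle arrays, with mean levels of -0.56 and 1.33, and 4 or 5 of them on the DHT arrays, with means of -2.77, -3.41 and -3.70. The 4 skeletal muscle markers had means of -0.51 and -0.59 with vehicle and of -3.33, -5.06 and -5.05 with DHT. Striatal genes, a list chosen after their values were seen, had means of 1.65 and 1.22 with vehicle and 0.64, 0.19 and 0.28 with DHT, and neuron markers 2.25 and 2.14 against 2.64, 2.79 and 2.77. Oligodendrocyte markers (4.94 and 4.65 against 4.11, 3.61 and 4.11), astrocyte markers (3.29 and 2.93 against 2.67, 2.65 and 2.61) and microglia and macrophage markers (1.55 and 1.38 against 0.80, 0.91 and 0.92) were also lower on all 3 DHT arrays. Fibroblast markers were at 0.06 and 0.26 against -0.21, -0.22 and -0.51. On longer lists, likewise chosen after values were seen, 5 of 12 tested choroid plexus genes, 5 of 10 muscle genes and 3 of 11 striatal genes fell in forebrain, against 0.792% of all genes. These 3 lists held 11 of the 35 named forebrain-only falls and, as Rxrg and Rgs9, 2 of the 13 named opposite genes. The part of tissue content in the forebrain results was not tested.

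**Figure D5:**
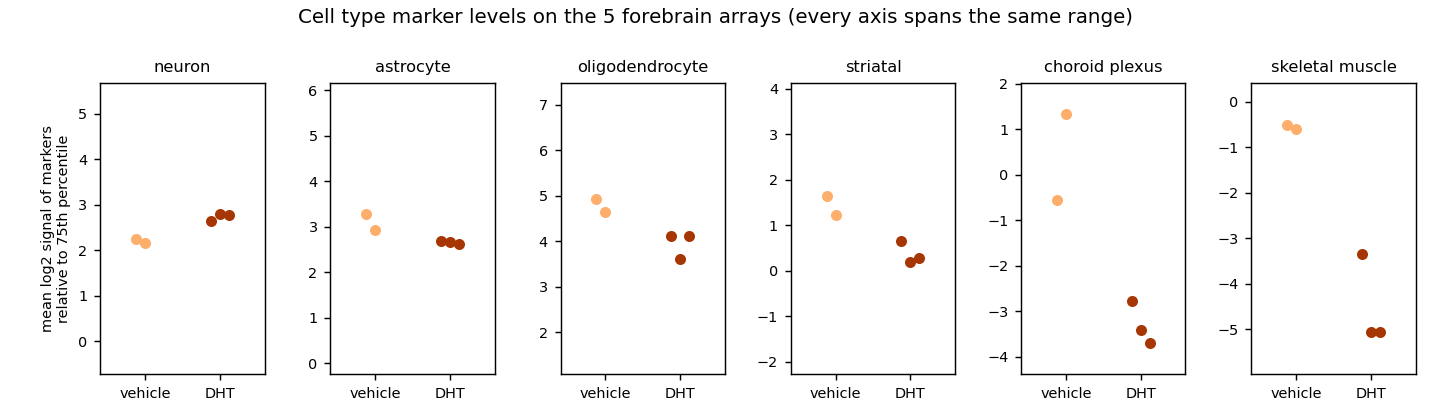
Mean log2 level of the markers of 6 cell or tissue types (y axis, relative to the 75th percentile of the array) on the 5 forebrain arrays, by treatment on the x axis; each point is 1 array and every axis spans the same range. Choroid plexus and skeletal muscle markers are lower on all 3 DHT arrays than on both vehicle arrays, and neuron markers slightly higher.

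Other forebrain-only falls included Mmp2 and Gnrh1. Forebrain vehicle array 2 stood apart in hypothalamic genes, looked up after values were seen. Pmch, the gene of melanin-concentrating hormone, was at 5.19 there, at -1.40 on vehicle array 1 and at -1.81 to -1.68 with DHT. Oxt, the oxytocin gene, was at 4.13 there and at -4.52 on vehicle array 1. Gnrh1, which encodes the hypothalamic releasing hormone of the reproductive axis, stood at -1.61 and -0.58 with vehicle and at -2.92, -2.87 and -3.25 with DHT in forebrain. Its 6 prostate arrays lay between -1.12 and -0.80, and the difference was 2.07 ± 0.35 (adjusted p = 0.00809). It was 1.56 without forebrain vehicle array 2 (adjusted p = 0.0140), and the part of the dissected region in it was not tested. Mmp2, a matrix metalloproteinase, fell 2.66-fold in forebrain (difference 1.93 ± 0.31, adjusted p = 0.00871). Sparc, a matrix glycoprotein (1.63 ± 0.34, adjusted p = 0.0169), differed with a forebrain effect of -1.18 that missed the test there (adjusted p = 0.0520), and its difference did not pass without forebrain vehicle array 1 (0.0536) or 2 (0.0529). The fibroblast markers above moved the same way as Mmp2 and Sparc, and their part in these results was not tested.

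Rises called in forebrain only were few and small. Cd200r1, an inhibitory receptor of microglia and macrophages, stood at -3.60 and -3.88 with vehicle and at -1.92, -2.33 and -1.82 with DHT, 3.29-fold higher (difference -1.96 ± 0.30, adjusted p = 0.00521). Its prostate groups overlapped between -3.73 and -2.98. The microglia and macrophage markers moved the other way in forebrain. Rasl11b, a small GTPase of the Ras family, rose 2.56-fold in forebrain (difference -1.77 ± 0.35, adjusted p = 0.0143). Ackr2, a chemokine scavenging receptor, and Rbm48 rose 2.36-fold and 2.12-fold from signals well above background on 1 of 2 vehicle arrays. Across the alternatives, the 8 forebrain-only genes chosen by size kept that class in 5 of 24 (Ackr2) to 20 of 23 (Sostdc1). The count of all forebrain-only genes was 4 with the replicate block and 13 without both arrays of narrow range. Leaving out 1 array gave 2 (without forebrain vehicle array 2), 3 and 6 (without forebrain DHT arrays 2 and 3), 12 (without forebrain DHT array 1), and 320 (without prostate vehicle array 3), with 20 to 230 for the others.

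Genes measurable in only one of the tissues could not enter the comparison and were tested within that tissue. Of 1549 genes measured in prostate only, 80 rose (5.16%) and 89 fell (5.75%). Of 4355 measured in forebrain only, 0 rose (0%) and 3 fell (0.0689%) by limma, with 1014 at an unadjusted p under 0.05. The 3 genes were Ttr, the transthyretin gene and a choroid plexus marker, Myh4, a myosin and skeletal muscle marker, and Glycam1. Ttr stood at 4.89 and 7.23 with vehicle and at -2.18, -2.55 and -3.20 with DHT, and Myh4 at 0.58 and 0.82 and then at -3.37, -4.36 and -4.42. The vehicle arrays were 416-fold and 27.0-fold higher (adjusted p = 0.0391 for both, limma), and 70.9-fold for Glycam1 (0.0460). Pbsn, the gene of probasin, a secreted protein made under androgen control, rose from -3.90, -3.96 and -3.56 to 1.36, 2.42 and 2.35 in prostate (adjusted p = 0.00167). It was well above background on 1 of 5 forebrain arrays. Mc5r, a melanocortin receptor of exocrine glands, was at least 6.21-fold higher and Scgb2a1, a secretoglobin, at least 3.23-fold higher with DHT, both not well above background on any prostate vehicle array. The neutrophil chemokine gene Cxcl1 fell from 1.22, 0.57 and -0.07 to -3.61, -3.76 and -3.52, and Cxcl2 from -0.89, -1.22 and -1.67 to -4.90, -4.34 and -4.18. Neither chemokine was well above background on more than 1 forebrain array. The count of 169 such calls in prostate became 43 to 69 when any 1 prostate array other than prostate vehicle array 3 was left out, and 201 without that array.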

How the data were processed

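RNA of castrated male rat prostate and forebrain was measured on 1-colour Agilent arrays. The values are spot intensities as deposited by the authors, background-subtracted signals of the scanner software. Per the file headers the software was Feature Extraction version 10.5.1.1, whereas the submitters' processing notes give 10.1 and name limma without a version. Each array's log2 intensity was taken minus its 75th percentile. Control spots (1417 of 42429) and outlier spots were left out, and no spot was saturated. A gene was read by its kept probe with the highest mean. Symbols came from the RefSeq GRCr8 table, used for names only, and 10813 of 41012 probes had one. Probes without a symbol were not merged and stayed in every fit, each as a gene of its own.

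One model with 4 groups was fitted in limma 3.58.1 (R 4.3.3) over all genes, with Benjamini-Hochberg adjustment over all of them and a threshold of 0.05. Confidence intervals are 95%. A fold given as "at least" compares the brighter group's mean with the higher of the lowest signal well above background and the dim probe's own signal on each array. The procedure was tested on simulated data. The number of arrays limits the precision.

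Same-numbered prostate and forebrain arrays of one treatment shared a slide. Their deviations from the group means correlated by 0.286, 0.103, 0.326, 0.165 and 0.355. Slide as a block follows these pairs. The replicate block also ties vehicle to DHT arrays of one number, a tie that these correlations do not examine. The main fit had no block, and the fit with the replicate block is given where it changes a call of a described result. Slide as a block is given likewise. The planned normexp correction used the median spot signal, since the mean signal is not among the columns used here. Alternatives covered normalization, background, filters, probe choice, array weights, blocks and left-out arrays.

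The gene lists, markers and comparisons were chosen with earlier results of these data known. Named genes were, by rule, the largest differences with non-overlapping arrays (8 per direction for prostate only, 4 per direction for forebrain only and for opposite), 10 chosen genes of which Pdk4 had no named probe, up to 4 genes with the smallest adjusted p of each list with at least 2 differing members, and, of the genes measured in prostate only, the 6 that rose most and the 4 that fell most. All other genes named, and the striatal and the longer choroid plexus and skeletal muscle lists, were chosen after their values were seen. The ovary and skin arrays of the series were not used here, except in the fit of all 23 arrays. Some results are not reported here.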

Additional observations from a re-analysis of the deposited data

Results flagged for a closer look

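For 86 genes described by name, the test of the difference between the tissues passed, 58 with a higher and 28 with a lower DHT effect in prostate. Each value in parentheses is the log2 DHT effect in prostate minus that in forebrain. All 86 kept their sign in every alternative in which they were tested, 18 passed in every one, 69 passed with the replicate block and 27 with the failed forebrain vehicle array added.

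Among genes with a prostate call only, large positive differences were those of Gal (5.46), Slc10a4 (4.65), Cntn6 (3.87), Abo3 (3.85), Scd2 (3.54), Creld2 (3.54) and Id4 (3.39). Large negative ones were those of Calcb (-4.64), Rnd1 (-3.63), Flvcr2 (-3.15), Mroh2b (-3.15) and Slc30a2 (-2.96). For 4 genes, no array of one prostate group was well above background, so the fitted value depends on the background and is no measured size. These were Nppc (3.45), Bdnf (-4.60), Syt12 (-3.47) and Gramd2a (-2.78), whose values with normexp were 0.0747, -2.51, -1.75 and -0.80. Falls called in forebrain only gave positive differences for Ckm (7.86), Sostdc1 (6.59), Tnnt3 (5.19), Clic6 (5.05), Gnrh1 (2.07) and Mmp2 (1.93). Rises called in forebrain only gave negative ones for Cd200r1 (-1.96), Rasl11b (-1.77), Ackr2 (-1.61) and Rbm48 (-1.47). Genes called oppositely were Fut4 (3.72), Rgs9 (3.38), Paqr5 (3.27), Rxrg (3.25), Dnajc22 (2.43), Ebf1 (2.05), Stat5a (1.62), Ifi35 (1.43), Aox1 (1.39) and Fgfrl1 (1.36), all higher in prostate, and Plaur (-2.20), Plk2 (-1.74) and Lurap1l (-1.74), lower there.

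Of the lipid pathways, those named by rule were the cholesterol genes Mvd (2.80), Acat2 (2.69) and Sqle (2.06), of 17 that passed, and the fatty acid genes Mlxipl (1.97), Acsl3 (1.42) and Fasn (1.16). The folding and transport genes were Fkbp11 (2.63), Calr (2.57), Hsp90b1 (1.57), Sar1b (1.96), Lman1 (1.75), Bet1 (1.52) and Ssr3 (1.48), and the N-glycosylation genes Gfpt1 (1.40), Dad1 (1.37), Rpn1 (1.26) and Mogs (0.79). Polyamine enzymes were Srm (2.46), Amd1 (1.36) and Odc1 (0.79). Growth factors and the receptor target were Igf2 (2.0), Igf1 (1.61) and Fkbp5 (2.30). Adipocyte genes were Adipoq (4.74), Cfd (2.01) and Cd36 (1.34). The Adipoq forebrain arrays lay at -4.47 and -2.22 with vehicle and at -5.34, -7.16 and -7.44 with DHT, and neither tissue passed alone.

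Immediate early and inflammatory genes with a difference were Junb (-2.14), Gadd45b (-1.75), Fosl2 (-1.33), Klf6 (-1.32), Birc3 (-1.57), Nfkb2 (-1.44) and Vcam1 (1.73). Clock genes were Bhlhe40 (-2.42), Per3 (-1.62), Nr1d2 (-1.61) and Cry1 (1.29). Receptor targets lower in prostate were Ndrg1 (-1.46) and Errfi1 (-0.99), and castration-induced genes Sparc (1.63), Gsta1 (1.07) and Tgfb3 (-1.06). The remaining genes were Gsta3 (1.21), Phgdh (1.02), Trib3 (-1.36), Cox7a2 (0.88) and Ndufa5 (0.82). With the replicate block, the adjusted p rose to 0.0778 for Mogs, 0.0790 for Rpn1, 0.0702 for Phgdh, 0.0763 for Trib3, 0.101 for Vcam1, 0.0596 for Gsta1, 0.0559 for Tgfb3, 0.0537 for Cd36, 0.0682 for Gsta3, 0.0547 for Cox7a2 and 0.0693 for Ndufa5 (limma).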

How the results depend on the processing

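The 2586 differences between tissues kept their sign under the 26 alternatives run on them wherever tested, except 4 with normexp background correction, 2 with probe means, 24 with the failed forebrain vehicle array and 1 in the fit of all 23 arrays. Filters, testing every probe, the trended spread and the fit of all 23 arrays leave the estimate unchanged where the probe is the same. Counts moved more. In the order tissue difference, prostate effect, forebrain effect, prostate only, forebrain only and opposite (2586, 4663, 295, 1842, 148 and 29), normexp gave 855, 2617, 6, 711, 6 and 0. No filter on dim probes gave 962, 2767, 17, 780, 16 and 1. Adding the failed array gave 210, 629, 1, 166, 1 and 0, and all 23 arrays 438, 1697, 29, 369, 16 and 0. The replicate block gave 1396 differences, 5 forebrain effects, 1154 prostate only, 4 forebrain only and 1 opposite. Slide as a random block gave 4666 differences and as a fixed block 4320, of which 69.5% were higher against 57.1%. Forebrain, forebrain-only and opposite counts were 693, 289 and 81 with probes above background on all 11 arrays, 1642, 557 and 172 with array weights, and 956, 381 and 133 with a trended, robust spread. Without both arrays of narrow range, an alternative chosen after seeing the data, they were 17, 13 and 3. Quantile normalization gave 514 forebrain effects and 56 opposite genes, and testing every probe 45 opposite genes.

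Of the lists, adding the failed array left 4 cholesterol, 4 folding, 0 transport and 1 fatty acid genes higher and 2 immediate early and 1 clock gene lower. All 23 arrays left 10, 12, 6, 2, 2 and 1. No filter left 12 folding, 7 transport and 3 fatty acid genes, normexp 3 fatty acid genes and 1 clock gene, the replicate block 8 transport genes, and slide as a random block gave 11 immediate early genes. The stricter filter on genes measured in prostate only left 57 of 169 calls.

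Leaving out 1 array gave 1088 to 3505 differences, 2932 to 5422 prostate effects, 3 to 832 forebrain effects, 926 to 2407 prostate only, 2 to 320 forebrain only and 0 to 101 opposite. It gave 12 to 20 cholesterol, 13 to 20 folding, 8 to 15 transport, 3 to 8 fatty acid, 6 to 9 immediate early and 3 to 4 clock genes, and 43 to 201 genes measured in prostate only. The Zbtb16 difference of 0.09 changed sign with quantile normalization (-0.0931) and ranged from -0.27 to 0.53 with 1 array left out, and that of Per1, 0.40, from -0.0553 (without forebrain vehicle array 1) to 0.86. The cause of these shifts was not tested. The median difference over all genes, 0.07, was 0.19 with the failed array added and -0.0371 with no filter, and normexp moved the medians of the prostate effect (-0.12 against 0.07) and forebrain effect (-0.15 against -0.02) together. Signals near background limit the genes given as "at least".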

Other observations

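Further gene groups had few members that differed between tissues. Over all genes, 10.8% rose and 8.88% fell in prostate, and 6.22% had a higher and 4.68% a lower effect there than in forebrain. Of 14 tested cell cycle genes, 5 fell in prostate, none rose, and 1 had a lower effect there. The 5 were Ccna2, Ccnb1, Cdk1, Plk1 and Rrm2. Ccnb1, the mitotic cyclin B1, stood at 1.38, 0.60 and 0.70 with vehicle and at -0.50, -1.34 and 0.02 with DHT in prostate, while its forebrain arrays lay between -3.03 and -2.66 (difference -1.72, adjusted p = 0.0486, limma). Cdk1, the kinase that cyclin B1 activates, had effects of -1.07 in prostate and -1.09 in forebrain, and its difference of 0.02 did not pass. Of 15 tested glutathione S-transferases, 2 rose and 3 fell in prostate. Gsta1 and Gsta3 rose in prostate and differed, and Gstm1, Gstm2 and Gstm7 fell there by 2.04, 1.21 and 1.42 log2 units without passing the test of the difference. Of 22 tested castration-induced genes, 6 fell and 1 rose in prostate, and 5 had a higher and 1 a lower effect there.

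Of 16 tested neuropeptide genes, 3 had a higher (against 6.22% of all genes) and 2 a lower effect (against 4.68%) in prostate. Penk, which encodes enkephalins and is abundant in striatum, differed by 1.94 (adjusted p = 0.0264), and Tac1, which encodes substance P, by -0.19 (0.865), with effects of -1.78 in prostate and -1.59 in forebrain. By limma, none of 14 synapse genes, 16 interferon response genes, 9 astrocyte genes, 13 aminoacyl-tRNA synthetases or 3 prostate secretory genes passed the test of the difference, with 1, 3, 2, 2 and 1 of them at an unadjusted p under 0.05. Over all genes, 7023 of 23728 had an unadjusted p under 0.05 for the difference (limma). Of the aminoacyl-tRNA synthetases, 5 rose in prostate (against 10.8% of all genes). The test passed for 2 of 22 oxidative phosphorylation genes, 2 of 16 ATF4 targets (1 in each direction), 1 of 19 ribosome biogenesis genes (Bysl, 0.83) and 1 of 8 myelin genes (Sox10, 1.33). It passed for 10.9% of all genes.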
